A study of Mus musculus with 3 samples.

Results

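Cycling CD8 T cells were examined in 3 droplet single-cell RNA sequencing libraries of CD45+ cells sorted from KP1 tumors. KP1 is a mouse small-cell lung cancer (SCLC) line with mutant Rb and p53. Members were chosen by counts of unique molecular identifiers (UMIs), each of which stands for 1 captured RNA molecule. Barcodes needed 200 or more detected genes and no more than 20% of UMIs from mitochondrial genes. Among them, a T cell had at least 2 summed UMIs of Cd3d, Cd3e, Cd3g, Trac, Trbc1 and Trbc2. It also had fewer than 5 UMIs of the myeloid genes Lyz2, C1qa, C1qb, S100a8 and S100a9, and fewer than 2 of the NK genes Klra1, Klra5, Klra6, Klra7 and Klrb1c. A CD8 T cell had at least 2 UMIs of Cd8a and Cd8b1 and none of Cd4 or Foxp3, and a cycling one had at least 3 UMIs of Mki67 and Top2a. The rule selected 3039 of 71909 kept barcodes.

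The mono-IL-10 library held 752 of these cells among 22235 kept barcodes, the IL-10/2-Trikine library 1555 among 22707, and the library that combined this cytokine with anti-PD-1 (the combination) 732 among 26967. All hosts were female B6129SF1/J F1 mice, labelled wild-type, with 500000 KP1 cells placed under the skin. By the labels, cytokine at 3 µg was dosed on alternate days, first on day 7 and last on day 19, and tumors were taken on day 19. The labels call the first group Supermono-10, a monomeric IL-10, and the others 10/2-Trikine, an IL-10 carrying an added arm that recruits the IL-2 receptor β chain. The combination also received 200 µg of an antibody to PD-1, given on day 7, day 11, day 15 and day 19. The titles and treatment labels name this antibody for the combination alone, although the wording of the protocol leaves room for its use in every group. Each group was 1 library from an unstated number of mice, and no untreated library was analysed here, so no test between groups is given. The intervals below are 95% intervals that cover counting error or, for the median of a list, the sampling of its genes as if they were independent. They leave out variation from mouse to mouse. Those of ratios of summed UMIs treat each UMI as independent and so leave out variation from cell to cell as well.

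CD8 T cells recognize peptides on MHC class I and kill with granzymes and perforin. On activation they divide rapidly, passing through DNA replication in S phase and chromosome segregation in G2 and M phase, and Mki67 and Top2a mark cells in these stages. IL-10 acts through IL-10Rα and IL-10Rβ and mainly activates STAT3, whereas IL-2 acts through IL-2Rβ and the common γ chain, mainly activates STAT5, and drives T cell division. In tumors, PD-1 restrains T cell receptor signals, and TCF1, encoded by Tcf7, marks T cells with self-renewing potential.

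The selected cells were deeper than other CD8 T cells. Their median UMI count was 11254.5 with mono-IL-10, 10788 with IL-10/2-Trikine and 10162.5 with the combination, against 3942, 3258 and 3235 in CD8 T cells without any Mki67 or Top2a UMI (non-cycling CD8 T cells). Their summed UMIs were 10002591, 19764771 and 8759914. Whole libraries held 158570946, 197176873 and 175794959 UMIs. The selected cells of the different libraries shared 0 barcodes, and 137 to 180 kept barcodes were shared between any pair of libraries. Cells just inside the cycling threshold, with 3 UMIs of Mki67 and Top2a, numbered 88, 56 and 57 in the same order of libraries, which is used throughout. Cells just outside it, with 2 UMIs, numbered 245, 113 and 161. Most members lay far from the threshold, with medians of 20, 22 and 20 UMIs. The lower quartiles were 6, 12 and 10 UMIs, so the lower tail came closest to the threshold in the mono-IL-10 library.

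Marker lists of other cell types were measured in the selected cells as CPM, the usual per-library scale in which the UMIs of a gene or list are divided by the UMIs of all genes summed over the same cells. CD4 T cell markers were at 1.80, 2.28 and 1.60 CPM and neutrophil markers at 1.10, 0.253 and 0.457 CPM. Low values of these lists were largely set by the rule, which allows no Cd4 or Foxp3 UMI and few myeloid ones. In each library 2 of 3 CD4 markers were detected, and 1, 3 and 3 of 3 neutrophil markers. Macrophage markers stood at 528, 358 and 278 CPM and B cell markers at 485, 191 and 30.5 CPM, and all 7 and all 5 of these markers were detected in each library. Gamma-delta T cell markers were at 74.5, 155 and 190 CPM, led by Trgc2, a gamma chain constant gene that many CD8 T cells also transcribe. At least 3 UMIs of macrophage, B cell or KP1 markers were found in 316, 513 and 264 members, and a doublet caller marked 11.4%, 15.6% and 3.42% of members. Its score threshold was set per library, at 0.1865, 0.1834 and 0.2881, so these rates are not on 1 scale. Removing called doublets took out 86, 243 and 25 members. NK cell markers stood at 287, 302 and 264 CPM, KP1 markers at 15.4, 15.6 and 31.2 CPM, dendritic cell markers at 4.60, 2.18 and 1.03 CPM, and the regulatory T cell list, which holds the activation genes Il2ra and Ctla4, at 961, 1030 and 1219 CPM. The part of these droplets in the results was not tested, and results that rest on them are given with and without them.

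Cycling cells made up the largest share of CD8 T cells after IL-10/2-Trikine. They were 752 of 4144 CD8 T cells, or 18.1% (exact interval 17.0 to 19.4), after mono-IL-10. They were 1555 of 4000, or 38.9% (37.4 to 40.4), after IL-10/2-Trikine and 732 of 3878, or 18.9% (17.7 to 20.1), after the combination. The IL-10/2-Trikine share was thus 2.14 times (1.99 to 2.31) the mono-IL-10 share, and the combination share was 0.486 times (0.450 to 0.524) the IL-10/2-Trikine share. All CD8 T cells together were 18.6%, 17.6% and 14.4% of kept barcodes. The 3 libraries therefore differed more in the cycling share of CD8 T cells than in the CD8 share of CD45+ cells. The rule read Mki67 and Top2a, so these shares are descriptions.

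Thinning moved the shares but not the place of the IL-10/2-Trikine library. With every barcode thinned at random to 2000 UMIs and shallower ones left out, cycling cells were 9.84%, 25.4% and 11.2% of CD8 T cells. At 4000 UMIs they were 23.4%, 55.5% and 34.7%. These settings changed the cells kept as well as the depth, and 2516, 2462 and 1862 CD8 T cells remained at 4000 UMIs. The combination and mono-IL-10 shares did not differ beyond counting error with all UMIs (ratio 1.04, 0.949 to 1.14) or at 2000 UMIs (1.14, 0.991 to 1.31), and they did at 4000 UMIs (1.48, 1.35 to 1.63). As a share of CD8 T cells, the combination was thus the higher of those 2 in each setting, by a gap that depended on the setting. As a share of kept barcodes it was not. There the ratio was 0.803 (0.726 to 0.887) with all UMIs, 0.888 (0.767 to 1.03) at 2000 UMIs and 0.987 (0.885 to 1.10) at 4000 UMIs. Macrophages, in which the same count of Mki67 and Top2a was taken as a background of dividing or mixed droplets, were at 15.8%, 15.2% and 15.0%.

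**Figure D1:**
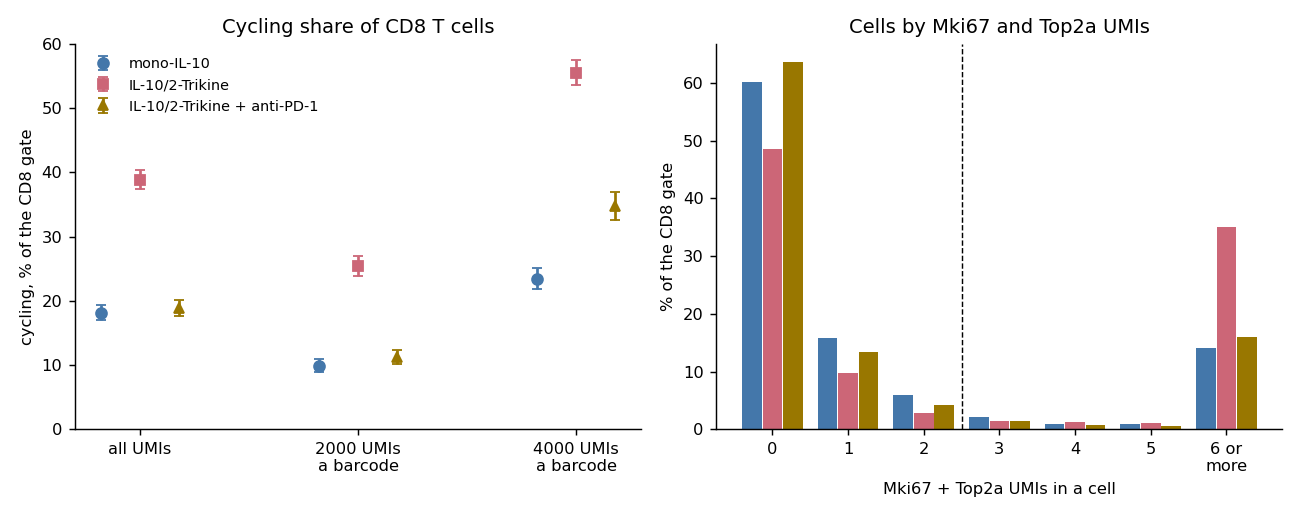
Left, the cycling share of CD8 T cells (percent) in each library with all UMIs and with barcodes thinned to 2000 or 4000 UMIs; points are single libraries and bars are exact 95% intervals. Right, CD8 T cells (percent) by their count of Mki67 and Top2a UMIs, with a dashed line at the threshold. The IL-10/2-Trikine library lies above the others at each depth (38.9% against 18.1% and 18.9% with all UMIs), and most of its cycling cells hold 6 or more UMIs.

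CD4 T cells were read the same way, with at least 1 Cd4 UMI and none of Cd8a, Cd8b1 or Foxp3. Cycling cells were 15.9% (14.2 to 17.7) of Foxp3-negative CD4 T cells after mono-IL-10, 41.5% (39.4 to 43.6) after IL-10/2-Trikine and 28.04% (26.6 to 29.6) after the combination. The IL-10/2-Trikine share over the mono-IL-10 share was 2.61 (2.31 to 2.95) in CD4 T cells, beside 2.14 in CD8 T cells. The combination share over the IL-10/2-Trikine share was 0.676 (0.628 to 0.727) in CD4 T cells, beside 0.486 in CD8 T cells. The CD4 shares were read with all UMIs, and the difference between CD4 and CD8 T cells was not tested.

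Transcripts of the cell cycle that the rule did not read were far higher in the selected cells. Cdk1, the kinase that drives entry into mitosis, stood at 217, 241 and 232 CPM in cycling and 4.58, 4.66 and 5.39 CPM in non-cycling CD8 T cells. Ccnb2, a cyclin partner of Cdk1, stood at 280.0, 310.4 and 276.6 CPM against 8.80, 12.8 and 10.3 CPM. Rrm2, a subunit of ribonucleotide reductase, stood at 368, 605 and 495 CPM against 7.52, 11.6 and 9.88 CPM. The groups of cells were thus apart in each library, by a log2 ratio of 5.57, 5.69 and 5.43 for Cdk1. These genes vary with Mki67 and Top2a, and the ratios describe what the rule selected.

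The promoters of Cdk1 and Ccnb2 are shown because they carry elements known from cell cycle genes, which the members have in common. In promoters of G2 and M phase genes, the CHR element (TTTGAA) is bound by the DREAM and MuvB complexes and CCAAT boxes by NF-Y. The sequences are the 100 bases before each start site in RefSeq annotation of GRCm38.p6, on the minus strand at chr10:69352913-69353012 for Cdk1 and at chr9:70421555-70421654 for Ccnb2. Capitals mark CHR and CCAAT letters on either strand.
Cdk1: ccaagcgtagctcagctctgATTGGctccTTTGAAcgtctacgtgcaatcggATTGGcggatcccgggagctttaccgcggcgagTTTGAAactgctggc
Ccnb2: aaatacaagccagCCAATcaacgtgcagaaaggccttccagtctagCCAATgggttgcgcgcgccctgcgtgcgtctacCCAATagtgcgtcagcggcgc
The Cdk1 window held 4 matches, of both motifs, and the Ccnb2 window 3, all of CCAAT. Within 250 bases before the start site and on both strands, CCAAT was found in 76.6% of 47 G2/M phase genes, 69.7% of 33 S phase genes and 37.5% of all 27025 genes with a promoter entry. TTTGAA was found in 38.3% of the G2/M phase genes, 18.2% of the S phase genes and 18.3% of all genes. A match shows that these letters are present and not that a factor binds there.

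Across 3769 genes that reached 50 CPM in either gate of each library, 346 (9.18%) were at least 2-fold higher in cycling than non-cycling CD8 T cells in all 3 libraries, and 138 (3.66%) were at least 2-fold lower. Of the G2/M phase genes that passed the filter, 41 of 44 were higher, with median log2 ratios of 4.29, 4.16 and 3.94. Of the S phase genes, 32 of 36 were higher, with medians of 2.56, 2.91 and 2.84. Genes of nucleotide and one-carbon synthesis, which supply DNA precursors, were higher in 12 of 15, with medians of 1.60, 1.78 and 1.72, among them Tk1 and Mthfd2. Thinning to 3000 UMIs a cell leaves out shallower cells and kept 2017 of 2492, 1125 of 1945 and 1432 of 2465 non-cycling CD8 T cells, the deeper ones of that gate, while few members were lost. At that depth, 7 of 13 of these nucleotide genes were higher, with medians of 1.03, 1.19 and 1.25. For low genes this filter was passed through the gate where the gene was high, so the counts describe the contrast and do not test it.

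Outside the phase lists, the named genes of highest ratio were H3c3, H1f5, Esco2, Ccna2, Neil3, Shcbp1, Pclaf and Spc24. H3c3 and H1f5 encode a core and a linker histone, Esco2 acetylates cohesin during replication, and Spc24 is a kinetochore subunit. Pclaf, a PCNA-binding protein, was at 823, 1124 and 960 CPM in cycling cells, with a UMI in 84.2% of members of the mono-IL-10 library. Ccna2, the S and G2 phase cyclin, was at 233, 261 and 258 CPM. None of these named genes was 2-fold apart between treatments, and few of all genes tested were (0.399% higher and 0.506% lower for IL-10/2-Trikine over mono-IL-10). Their levels were not equal, with Esco2 at 76.2, 105 and 82.3 CPM and H3c3 at 222, 169 and 197 CPM.

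The named genes of lowest ratio included the quiescence and memory genes Tcf7, Klf3 and Slfn1, and the chemokine gene Ccl5. Ccl5, the T cell chemokine RANTES, stood at 2865, 2109 and 3370 CPM in cycling cells and 13868, 16678 and 20337 CPM in non-cycling cells, a log2 ratio of -2.27, -2.98 and -2.59. Tcf7 stood at 43.8, 33.7 and 23.6 CPM against 253, 136 and 114 CPM, a log2 ratio of -2.53, -2.01 and -2.27. Both genes were lower in cycling cells of every library, which the way these genes were named requires. Of the stem and memory list, 9 of 15 genes that passed the filter were lower, among them Bach2, Bcl2, Il7r, Klf3, Ly6c2, S1pr1, Slamf6 and Tcf7, and Myb was higher. Il7r, the receptor of the survival cytokine IL-7, was at 123, 153 and 131 CPM against 472, 445 and 546 CPM. With both gates thinned to 3000 UMIs a cell, 55 genes in all were lower instead of 138, and in the stem and memory list these included Bach2, Il7r, Klf3 and Tcf7.

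Of the type I interferon response list, 8 of 17 genes that passed the filter were lower in all 3 libraries (Ifi203, Ifi209, Ifi27l2a, Rigi, Samhd1, Slfn1, Trim30a and Xaf1) and 0 were higher. The medians were -0.95, -1.23 and -1.14 on the log2 scale. After thinning, 4 of 16 were lower. In the interferon-gamma response list, 2 of 25 were lower, the guanylate binding proteins Gbp2 and Gbp8, where 3.66% of all genes tested were lower. Counts of killing and checkpoint genes past 2-fold were too small to set either list apart from all genes. Of all genes tested, 9.18% were higher and 3.66% lower in all 3 libraries. Ccl5 was the only 1 of 19 cytotoxic effector genes past 2-fold in all libraries, and Tnfrsf9, the costimulatory receptor 4-1BB, the only 1 of 15 in the inhibitory receptor and exhaustion list, where it was higher. After thinning, 0 of 15 genes of that list were past 2-fold in all libraries. Il2ra, the IL-2 receptor α chain, was higher in cycling cells, at 128, 176 and 141 CPM against 29.2, 45.9 and 53.6 CPM. The other receptor, JAK and STAT genes that passed the filter stayed within the 2-fold limit in at least 1 library.

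**Figure D2:**
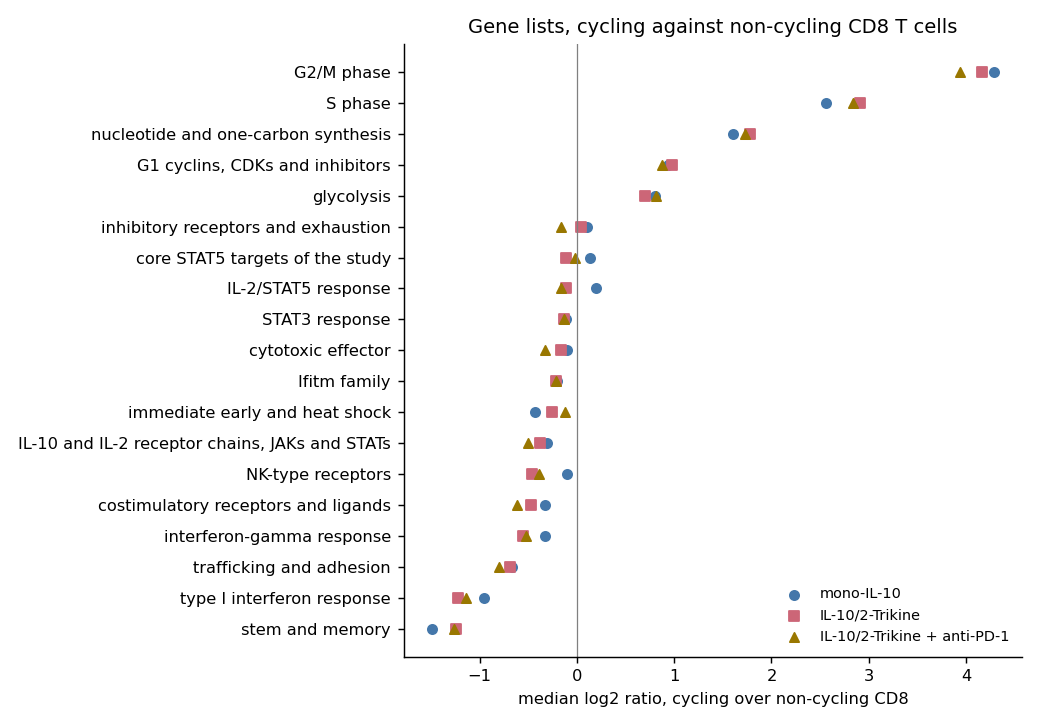
Median log2 ratio of CPM, cycling over non-cycling CD8 T cells, for the genes of each list that passed the filter; each symbol is 1 library. G2/M and S phase genes lie farthest to the right in all 3 libraries (4.29, 4.16 and 3.94 for G2/M), and stem and memory and type I interferon response genes farthest to the left.

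The cells of the IL-10/2-Trikine library held more phase transcripts per cell than those of the mono-IL-10 library. With members thinned to 3000 UMIs, which kept 734, 1536 and 714 of them, the median cell held 16, 21 and 19 UMIs of the S phase list and 36, 45 and 40 UMIs of the G2/M list. Summed over members and set against all genes, the S phase list had a median log2 ratio of 0.32 (0.24 to 0.36) for IL-10/2-Trikine over mono-IL-10, and 43 of its 45 genes lay above the median of all genes. The G2/M list had 0.21 (0.17 to 0.25), with 47 of 54 genes above. For the combination over IL-10/2-Trikine these medians were -0.18 (-0.22 to -0.13) and -0.17 (-0.19 to -0.12). None of the genes of either list passed 2-fold. Droplets with at most 100 UMIs, which show free RNA, held the S phase list at 3009, 4711 and 3395 CPM. They held the G2/M list at 5171, 8409 and 5790 CPM, also highest after IL-10/2-Trikine. The part of free RNA was not tested. Both comparisons use the same IL-10/2-Trikine library. The phase lists vary with the genes of the rule. The lower quartile of Mki67 and Top2a UMIs in members was 6 after mono-IL-10 and 12 after IL-10/2-Trikine. The part of the threshold in these differences was not tested. Without members bearing markers of another cell type, the S phase median for the first comparison was 0.47, and with a threshold of 6 UMIs of Mki67 and Top2a the G2/M median was 0.10.

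Few genes separated cycling CD8 T cells after IL-10/2-Trikine from those after mono-IL-10 by 2-fold or more. Of 3756 genes that reached 50 CPM in either library, 15 (0.399%) were at least 2-fold higher and 19 (0.506%) at least 2-fold lower, and 94.8% of genes were within 1.5-fold. Of these 34 genes, 16 passed the filter on low values in 1 library only, and 32 differed in the same direction in non-cycling CD8 T cells, 16 of them by 2-fold or more.

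The Ifitm genes were the clearest group. These interferon-inducible transmembrane proteins restrict the entry of viruses, and they are paralogs that lie close together, so reads may be shared among them and the split between them is uncertain, as for Ccl3 and Ccl4, the Gbp genes, histones, Ly6c2 and Serpina3g. Ifitm1 stood at 68.9 CPM after mono-IL-10, 563 CPM after IL-10/2-Trikine and 426 CPM after the combination. Its log2 ratio for IL-10/2-Trikine over mono-IL-10 was 3.03 (2.92 to 3.14), and 2.48 in non-cycling cells. Ifitm2 stood at 80.7, 330.1 and 222 CPM, with a log2 ratio of 2.03 (1.93 to 2.14), and Ifitm3 at 52.1, 149 and 126 CPM, with 1.51 (1.38 to 1.65). All 3 were lowest in the mono-IL-10 library and highest in the IL-10/2-Trikine library. In droplets with too few UMIs to hold a cell (at most 100), which show free RNA, Ifitm1 stood at 60.6, 388 and 291 CPM, Ifitm2 at 301, 693 and 454 CPM and Ifitm3 at 216, 315 and 288 CPM. The free RNA thus ran in the same order among libraries, below the level of cycling cells for Ifitm1 and above it for Ifitm2 and Ifitm3, and its part in these ratios was not tested. The remaining members, Ifitm6 and Ifitm10, did not reach 50 CPM in any library (1.40, 1.47 and 1.03 CPM for Ifitm6). Without members that carried markers of another cell type, the log2 ratios were 3.73 for Ifitm1, 2.495 for Ifitm2 and 1.93 for Ifitm3.

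The Ifitm1 difference was one of the number of positive cells as well as of the level. At 3000 UMIs a cell, 7.36% (5.57 to 9.49) of members had an Ifitm1 UMI after mono-IL-10, 37.2% (34.8 to 39.7) after IL-10/2-Trikine and 27.5% (24.2 to 30.9) after the combination. Macrophages at the same depth had 12.4%, 19.6% and 12.2%. They had an Ifitm2 UMI in 83.3%, 83.6% and 78.2%. Whether macrophages transcribe Ifitm1 themselves was not tested, so their share is no clear background for this gene. In the IL-10/2-Trikine library, 22.3% of members had both an Ifitm1 and an Ifitm2 UMI, where the product of their shares is 14.8%. Both genes were thus found together more often than the product, in the other libraries as well (3.54% against 1.02%, and 14.3% against 7.42%).

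Osteopontin, encoded by the secreted cytokine gene Spp1, had the largest ratio of the genes named for IL-10/2-Trikine over mono-IL-10. Spp1 stood at 5.80, 69.6 and 4.79 CPM, a log2 ratio of 3.58 (3.21 to 3.99) for IL-10/2-Trikine over mono-IL-10 and of -3.86 for the combination over IL-10/2-Trikine. This value rested on few cells, since 62.8% of its UMIs in the IL-10/2-Trikine library came from the top 1% of members and 4.82% of members had a UMI at 3000 UMIs. In droplets of at most 100 UMIs, Spp1 stood at 11.4, 73.5 and 33.3 CPM, above the cycling cells in each library and also highest after IL-10/2-Trikine. Lgals3, which encodes the β-galactoside-binding lectin galectin-3, stood at 218, 619 and 376 CPM (log2 ratio 1.503). Nrgn, which encodes the calmodulin-binding protein neurogranin, stood at 19.0, 66.2 and 32.6 CPM (1.80). Ass1, the arginine-synthesis enzyme argininosuccinate synthase, stood at 28.5, 64.2 and 41.4 CPM (1.17). Areg, an EGF receptor ligand, stood at 15.4, 57.5 and 53.3 CPM (1.90). The top 1% of members held 74.7%, 46.2% and 38.3% of its UMIs, and at 3000 UMIs 2.04%, 7.03% and 6.58% of members had one. Its log2 ratio was 2.92 with called doublets removed and 1.48 among members with 0 UMIs of the myeloid genes. The mono-IL-10 library was lowest in each of these 4 genes, and lowest too in droplets of at most 100 UMIs, with 146, 329 and 322 CPM for Lgals3 and 87.2, 138 and 198 CPM for Areg. The part of free RNA was not tested.

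Gzma was the only 1 of 19 cytotoxic effector genes that was at least 2-fold higher with IL-10/2-Trikine. This granule protease stood at 4920 CPM after mono-IL-10, 10636 CPM after IL-10/2-Trikine and 9745 CPM after the combination, a log2 ratio of 1.11 (1.10 to 1.13) for the first comparison. At 3000 UMIs, 74.7%, 92.8% and 90.6% of members had a Gzma UMI, with 5.58%, 21.9% and 26.2% of macrophages as background. Droplets of at most 100 UMIs held Gzma at 1217, 5098 and 5359 CPM, also lowest after mono-IL-10. Gzmb, another granule protease, stood at 5788, 5518 and 6766 CPM, lowest after IL-10/2-Trikine. Its share of members with a UMI was lowest after mono-IL-10, at 87.7%, 93.5% and 92.7%, as was its level in droplets of at most 100 UMIs, at 1260 CPM against 2688 and 2898 CPM. Prf1, the pore-forming perforin, stood at 598, 397 and 394 CPM, and Gzmk at 728, 754 and 732 CPM. Ccl3 and Ccl4, chemokines that activated T cells secrete, were lower in the IL-10/2-Trikine library, at 283, 115 and 128 CPM for Ccl3 and 833, 362 and 384 CPM for Ccl4. Their log2 ratios were -1.29 and -1.20. Droplets of at most 100 UMIs held 229, 184 and 244 CPM of Ccl3 and 1145, 581 and 882 CPM of Ccl4. Ifng stood at 166, 117 and 92.9 CPM, and 29.4%, 19.4% and 16.9% of members had a UMI. The cytotoxic list as a whole lay at -0.10 (-0.41 to 0.17), so its genes differed in both directions.

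**Figure D3:**
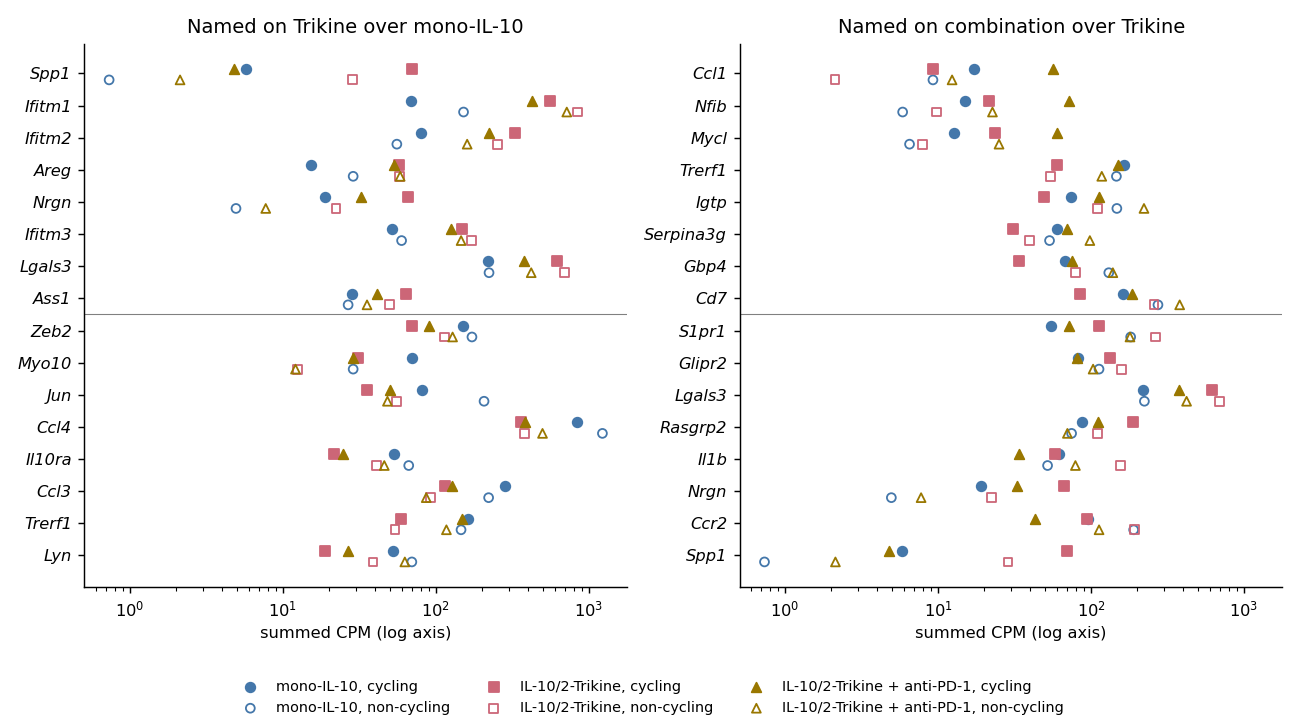
Summed CPM (log axis) of the genes named for each treatment comparison, with the 8 highest ratios above the grey line and the 8 lowest below it; filled symbols are cycling and open symbols non-cycling CD8 T cells of the same library. Ifitm1 lies at 68.9 CPM in mono-IL-10 and at 563 and 426 CPM in the Trikine libraries, and non-cycling cells lie at 152, 848 and 719.5 CPM.

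Receptor and signaling genes of the cytokines given were lower in the IL-10/2-Trikine library on balance. Il10ra, the IL-10-binding receptor chain, stood at 53.3, 21.8 and 24.8 CPM, a log2 ratio of -1.29 (-1.48 to -1.11) for IL-10/2-Trikine over mono-IL-10, beside -0.70 in non-cycling cells. At 3000 UMIs, 14.2% (11.7 to 16.9), 6.38% (5.21 to 7.72) and 8.26% (6.35 to 10.5) of members had an Il10ra UMI, a gene that macrophages themselves express. In droplets of at most 100 UMIs, Il10ra stood at 143, 60.8 and 83.9 CPM, in the same order among libraries, and the part of free RNA was not tested. Il10rb, the shared second chain, stood at 37.1, 38.0 and 44.5 CPM. Stat3 stood at 553, 350 and 449 CPM, Stat5a at 50.6, 31.5 and 43.3 CPM and Stat5b at 118, 78.0 and 90.1 CPM. Of 21 receptor chain, JAK and STAT genes, 5 lay above the median of all genes, and their median was -0.25 (-0.56 to -0.05). Stat3, Stat5a and Stat5b were each highest in the mono-IL-10 library.

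IL-2 receptor chains and targets gave a mixed picture. Il2ra stood at 128, 176 and 141 CPM, and 17.6% (14.9 to 20.5), 28.4% (26.1 to 30.7) and 21.7% (18.7 to 24.9) of members had a UMI at 3000 UMIs, against under 1% of macrophages in each library. The share was thus highest in the IL-10/2-Trikine library, 1.62 times (1.35 to 1.93) that of mono-IL-10. Il2rb, the chain engaged by the added arm, stood at 252, 228 and 289 CPM. Cish and Socs1, feedback inhibitors induced by STAT5, stood at 30.1, 34.5 and 35.5 CPM and at 57.3, 69.8 and 90.4 CPM. The IL-2/STAT5 response list had a median of 0.03 (-0.05 to 0.21) with 16 of 28 genes above all genes, and in non-cycling cells 0.24 (0.09 to 0.56). The STAT3 response list lay at -0.21 (-0.57 to 0.03). The core STAT5 targets, a list taken from the study, lay at -0.07 (-0.78 to 1.20), with Gzma the 1 gene of 8 past 2-fold. Of the 10 genes listed, Klra7 and Klrb1c were left out here as genes of the rule. The study scored this list in T and NK cells of a pancreatic tumor model.

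The other genes of lowest ratio for IL-10/2-Trikine over mono-IL-10 were Trerf1, Jun, Myo10, Zeb2 and Lyn. Trerf1, a transcriptional regulator, stood at 163, 59.7 and 149 CPM (log2 ratio -1.45), and Zeb2, a repressor linked to terminal effector differentiation, at 152, 70.0 and 90.5 CPM (-1.12). Jun, an AP-1 subunit, stood at 81.3, 35.4 and 50.2 CPM (-1.20). Myo10, an unconventional myosin, stood at 69.6, 30.9 and 28.7 CPM (-1.17), and its log2 ratio was -0.93, inside the 2-fold limit, without members that carried markers of another type. In droplets of at most 100 UMIs, Myo10 stood at 115, 40.6 and 78.0 CPM. In the same droplets, Zeb2 stood at 775, 229 and 424 CPM, Jun at 318, 125 and 201 CPM and Lyn at 1318, 299 and 655 CPM, each of these 3 in the order of the cycling cells. The part of free RNA in these ratios was not tested. Lyn is a Src-family kinase of B and myeloid cells, and its 52.7, 18.9 and 26.7 CPM were 25.99, 9.29 and 23.6 CPM without members that carried markers of another type. The B cell gene Igkc, left out of the named genes, was at 401, 141 and 12.0 CPM and at 27.4, 13.7 and 6.84 CPM without those members.

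Interferon response genes were lower as a group in cycling CD8 T cells of the IL-10/2-Trikine library, the Ifitm genes apart. The type I interferon response list had a median of -0.53 (-0.82 to -0.43) for IL-10/2-Trikine over mono-IL-10, with 3 of 38 genes above the median of all genes. The interferon-gamma response list had -0.36 (-0.54 to -0.11), with 4 of 35 above. In non-cycling cells the medians were -0.38 and -0.13. Free RNA, in droplets of at most 100 UMIs, held the type I list at 3260, 2109 and 3016 CPM. It held the interferon-gamma list at 12487, 12156 and 14696 CPM. Both were thus lowest after IL-10/2-Trikine there too, and the part of free RNA was not tested. Ifi27l2a was 2-fold lower among 11 type I genes tested and Gbp4 among 23 interferon-gamma genes, where 0.506% of all genes tested were. Gbp4, an interferon-inducible GTPase, stood at 67.7, 33.6 and 74.5 CPM, so that its lowest level was in the IL-10/2-Trikine library.

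The same lists were higher in the combination than in the IL-10/2-Trikine library. The type I list had a median of 0.48 (0.29 to 0.64) with 33 of 37 genes above all genes, and the interferon-gamma list 0.50 (0.34 to 0.71) with 35 of 35 above, while the Ifitm genes stood at -0.44. In non-cycling cells the medians were 0.37 and 0.44. This comparison had 11 genes of 3623 (0.304%) at least 2-fold higher and 7 (0.193%) at least 2-fold lower. Of these 18, 14 passed the filter in 1 library only, and 17 differed in the same direction in non-cycling cells. Among the 7 lower genes, only Spp1, Ccr2 and Nrgn could be named. The others belong to classes left out of the named genes, Igkc among them. Among the 11 higher genes were Gbp2, Gbp4 and Igtp of the interferon-gamma list and Isg15 of the type I list, 3 of 25 and 1 of 10 genes tested.

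Isg15, Igtp and Gbp2 each had their lowest level in the IL-10/2-Trikine library. Isg15, a ubiquitin-like protein, stood at 76.9, 42.6 and 91.6 CPM, with log2 ratios of -0.85 (-0.996 to -0.710) for IL-10/2-Trikine over mono-IL-10 and 1.11 (0.96 to 1.25) for the combination over IL-10/2-Trikine. Igtp, an immunity-related GTPase, stood at 73.9, 49.4 and 112 CPM and Gbp2 at 55.6, 39.9 and 86.2 CPM. For Isg15, Igtp and Gbp2 the combination library also exceeded mono-IL-10. Droplets of at most 100 UMIs gave the same order, with 149, 99.9 and 200.2 CPM for Isg15, 111, 83.4 and 172 CPM for Igtp and 107, 81.0 and 169 CPM for Gbp2, and the part of free RNA was not tested. Because both comparisons draw on the IL-10/2-Trikine library, a low level there alone gives opposite signs in the pair.

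Promoters of genes in these groups are shown because the Ifitm genes and the other interferon genes went apart. The ISRE, read here as GAAA repeated after 2 bases of any kind, is bound by interferon regulatory factors, and the GAS element, read as TTCNNNGAA, by STAT dimers, STAT3 and STAT5 included. Each line gives the 100 bases before the start site from RefSeq on GRCm38.p6, with ISRE and GAS letters of either strand in capitals. Positions are chr7:140967976-140968075 (plus strand) for Ifitm1, chr7:140955962-140956061 (minus) for Ifitm2, chr7:141010745-141010844 (minus) for Ifitm3, chr4:156200819-156200918 (minus) for Isg15, chr11:58199456-58199555 (plus) for Igtp and chr12:104236047-104236146 (plus) for Serpina3g.
Ifitm1: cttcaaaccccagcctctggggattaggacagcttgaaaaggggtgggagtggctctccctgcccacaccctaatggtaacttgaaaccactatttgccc
Ifitm2: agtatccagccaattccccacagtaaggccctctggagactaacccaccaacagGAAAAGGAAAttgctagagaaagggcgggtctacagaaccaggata
Ifitm3: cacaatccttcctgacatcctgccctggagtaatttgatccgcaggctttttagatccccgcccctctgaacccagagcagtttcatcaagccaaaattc
Isg15: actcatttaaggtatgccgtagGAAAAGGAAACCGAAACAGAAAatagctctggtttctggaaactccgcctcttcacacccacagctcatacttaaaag
Igtp: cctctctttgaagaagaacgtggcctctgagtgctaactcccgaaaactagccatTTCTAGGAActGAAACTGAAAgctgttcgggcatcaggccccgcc
Serpina3g: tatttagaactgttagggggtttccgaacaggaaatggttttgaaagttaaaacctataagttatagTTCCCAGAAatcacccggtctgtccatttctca
Isg15 held 3 overlapping ISRE matches and no GAS match, Igtp 1 of each, Serpina3g 1 GAS match and Ifitm2 1 ISRE match, and the windows of Ifitm1 and Ifitm3 held 0 matches. Within 250 bases before the start site, the ISRE letters were found in 53.1% of 32 type I interferon genes, 48.1% of 27 interferon-gamma genes and 3.46% of all genes. The GAS letters were found in 18.8%, 33.3% and 8.13%. These strings allow no mismatch, and their absence from a window says nothing of the factors.

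The remaining genes of highest ratio for the combination over IL-10/2-Trikine were led by genes carried by few cells. Ccl1, a chemokine, stood at 17.1, 9.31 and 56.5 CPM, but 87.3% of its UMIs in the combination library came from the top 1% of members, and its log2 ratio of 2.60 was -0.24 without members that carried markers of another type. Nfib and Mycl, both known as SCLC genes, had log2 ratios of 1.73 and 1.35, which were 0.67 and 0.04 without those members and 3.57 and 3.49 with called doublets removed. Droplets of at most 100 UMIs held 187, 141 and 254 CPM of Nfib and 183, 154 and 269 CPM of Mycl. Serpina3g, a serine protease inhibitor of activated T cells, stood at 59.9, 30.8 and 69.6 CPM (1.18), Trerf1 at 1.32 and Cd7, a T and NK cell surface receptor, at 163, 84.6 and 184 CPM (1.12). Without those members these 3 log2 ratios were 1.20, 1.31 and 1.05.

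Genes of lowest ratio for the combination over IL-10/2-Trikine included receptors that guide T cell movement. Ccr2, a receptor for monocyte-attracting chemokines, stood at 95.3, 93.9 and 43.3 CPM (log2 ratio -1.12, -1.28 to -0.96), and S1pr1, the receptor for exit from tissue, at 54.5, 113 and 71.8 CPM (-0.65). Rasgrp2, an activator of Rap1 in integrin adhesion, stood at 87.1, 188 and 111 CPM (-0.76), Glipr2 at 82.5, 133 and 81.1 CPM (-0.72), and Nrgn and Lgals3 at -1.02 and -0.72. S1pr1, Rasgrp2, Lgals3 and Nrgn, all above their mono-IL-10 level after IL-10/2-Trikine, thus lay between those levels in the combination. Free RNA, in droplets of at most 100 UMIs, ran in the same order for S1pr1 (49.7, 78.0 and 66.0 CPM), Rasgrp2 (39.1, 101 and 56.1 CPM) and Lgals3 (146, 329 and 322 CPM). For Nrgn it was highest in the combination (15.6, 24.1 and 35.3 CPM). The part of free RNA was not tested. Il1b, a myeloid cytokine gene, had -0.78, which was 0.15 without members that carried markers of another type and 1.38 with called doublets removed. The list of 20 trafficking and adhesion genes as a whole lay at -0.04 (-0.29 to 0.29), with Ccr2 the 1 gene past 2-fold.

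**Figure D4:**
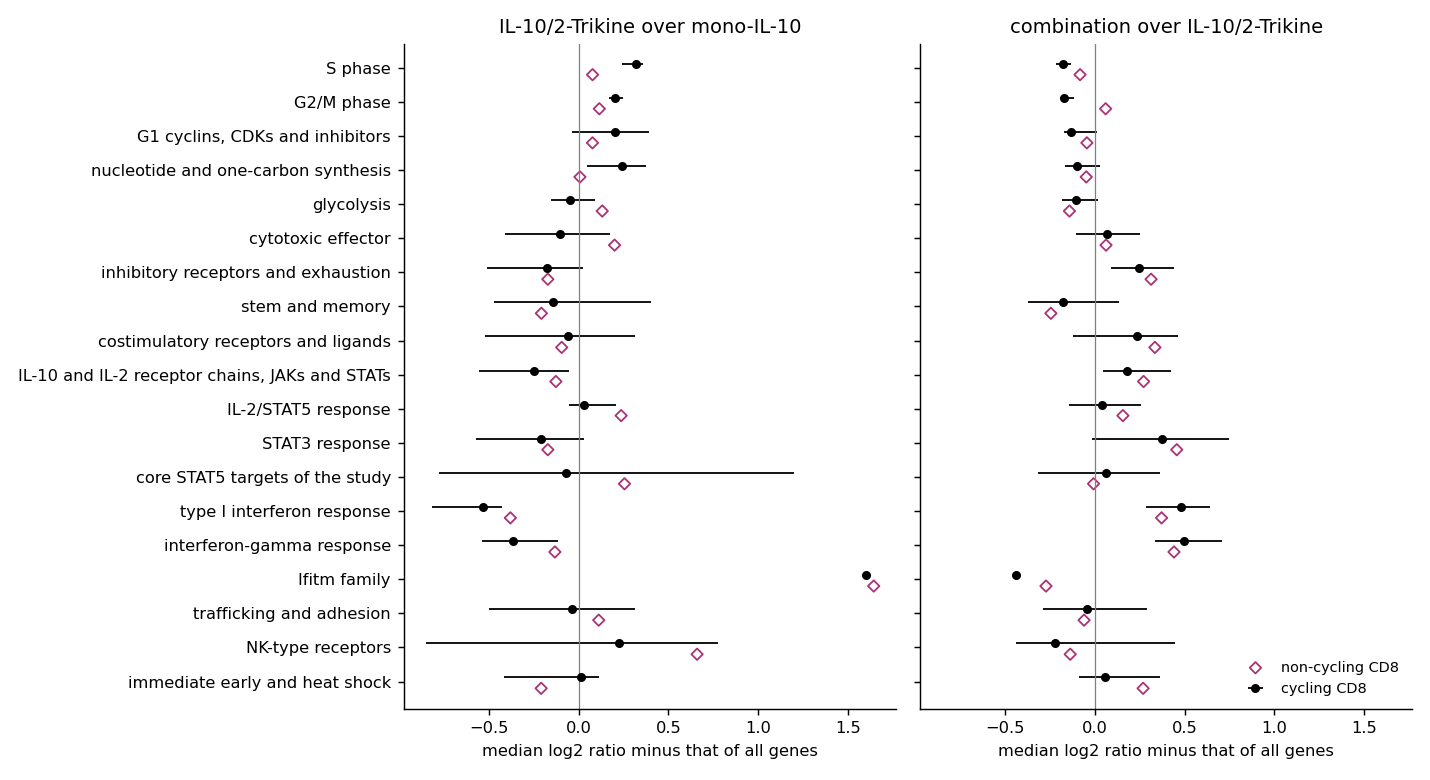
Median log2 ratio of each gene list minus that of all genes, in cycling CD8 T cells (black points; bars are exact order-statistic 95% intervals over genes, drawn where the list is large enough) and non-cycling CD8 T cells (open diamonds). Type I and interferon-gamma lists lie left of 0 for IL-10/2-Trikine over mono-IL-10 (-0.53 and -0.36) and right of 0 for the combination over IL-10/2-Trikine (0.48 and 0.50), and the Ifitm family lies on the opposite side in both panels.

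Inhibitory receptors differed by gene in IL-10/2-Trikine over mono-IL-10 and were higher as a group in the combination than with IL-10/2-Trikine. The list of 22 inhibitory receptor and exhaustion genes had a median of -0.18 (-0.51 to 0.02) in the first comparison and 0.24 (0.09 to 0.44) in the second, with 18 of 22 genes above all genes and 0 past 2-fold. Pdcd1, which encodes PD-1, was detected at 3000 UMIs in 27.4% (24.2 to 30.8), 33.5% (31.1 to 35.9) and 39.4% (35.8 to 43.0) of members, with 1.83%, 1.99% and 2.82% of macrophages as background. Lag3 was detected in 36.2% (32.8 to 39.8), 22.5% (20.5 to 24.7) and 30.5% (27.2 to 34.1), and Tigit in 8.31%, 4.88% and 7.70%. Lag3 and Tigit were thus lowest in the IL-10/2-Trikine library, while Pdcd1 was lowest in the mono-IL-10 library. Havcr2, which encodes TIM-3 and is also expressed by macrophages, was detected in 38.1%, 29.1% and 29.1%. Ctla4 was detected in 63.2%, 60.5% and 64.1%, and its shares did not differ beyond counting error in either comparison.

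Among stem and memory genes, Tcf7 was detected at 3000 UMIs in 9.26% (7.27 to 11.6), 7.88% (6.58 to 9.34) and 4.76% (3.32 to 6.59) of members, against 37.4%, 18.9% and 18.7% of the non-cycling CD8 T cells deep enough to be thinned and 0.419%, 0.611% and 0.586% of macrophages. The combination share was 0.604 times (0.418 to 0.875) that of IL-10/2-Trikine, and the IL-10/2-Trikine share was 0.850 times (0.640 to 1.13) that of mono-IL-10, an interval that includes 1. Slamf6, a surface marker of progenitor cells, was detected in 14.6%, 11.1% and 7.42%, and Il7r in 22.3%, 28.1% and 22.1%. Ly6c2, an antigen of memory and recently activated CD8 T cells, was detected in 34.2% (30.8 to 37.8), 49.9% (47.4 to 52.5) and 34.0% (30.6 to 37.6). The IL-10/2-Trikine library thus stood highest in Ly6c2 and Il7r but not in Tcf7 or Slamf6. Macrophages held Ly6c2 in 13.7%, 23.0% and 14.3%. Of members with a Gzmb UMI, 4.35%, 5.85% and 3.93% had a Tcf7 UMI, against 44.4%, 37.0% and 15.4% of those without. The stem and memory list as a whole lay at -0.14 (-0.47 to 0.40) and -0.18 (-0.37 to 0.14) in the 2 comparisons.

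**Figure D5:**
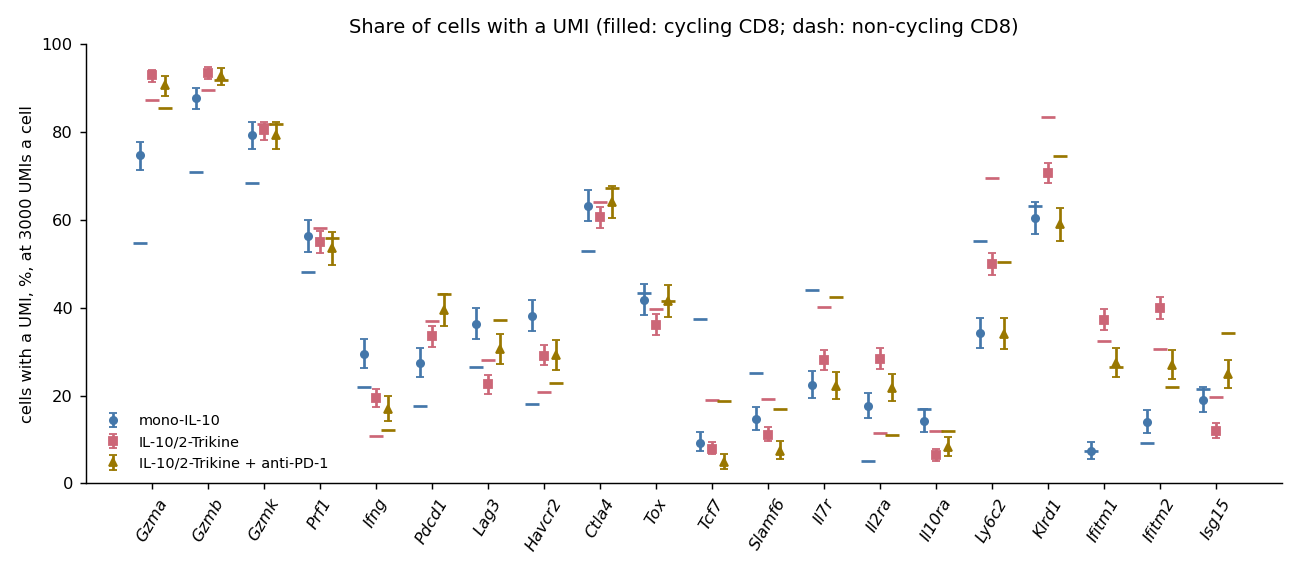
Percent of cells with at least 1 UMI of a gene at 3000 UMIs a cell; filled symbols are cycling CD8 T cells with exact 95% intervals and dashes are non-cycling CD8 T cells of the same library with at least 3000 UMIs. Gzma (74.7% against 92.8% and 90.6%) and Ifitm1 (7.36% against 37.2% and 27.5%) are lowest in the mono-IL-10 library, Isg15 and Lag3 are lowest in the IL-10/2-Trikine library, and Tcf7 lies below the non-cycling cells in each library.

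The remaining list medians were as follows. For IL-10/2-Trikine over mono-IL-10, nucleotide and one-carbon synthesis genes had a median of 0.24 (0.05 to 0.37), with 19 of 22 genes above all genes. Medians with an interval that includes 0 were 0.20 for G1 cyclins, CDKs and inhibitors, -0.05 for glycolysis, -0.06 for costimulatory receptors and ligands, -0.03 for trafficking and adhesion, 0.23 for NK-type receptors and 0.01 for immediate early and heat shock genes. For the combination over IL-10/2-Trikine, receptor chains, JAKs and STATs had 0.18 (0.04 to 0.42), with 18 of 21 above. Medians with an interval that includes 0 were 0.07 for cytotoxic effector genes, -0.13 for G1 cyclins, CDKs and inhibitors, -0.10 for nucleotide synthesis, -0.11 for glycolysis, 0.23 for costimulatory receptors, 0.04 for the IL-2/STAT5 response, 0.37 for the STAT3 response, 0.06 for core STAT5 targets, -0.22 for NK-type receptors and 0.06 for immediate early and heat shock genes.

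Cycling CD8 T cells were set against cycling Foxp3-negative CD4 T cells, for genes that reached 50 CPM in either gate of each library. For low genes this filter was passed through the gate where the gene was high, so the counts describe the contrast and do not test it. Of 3501 genes that passed the same filter, 16 (0.457%) were at least 2-fold higher in cycling CD8 T cells in all 3 libraries and 36 (1.03%) at least 2-fold lower. None of the phase genes tested was among them, and Cdk1 had log2 ratios of 0.04, -0.04 and -0.03, in gates chosen by the same Mki67 and Top2a rule. The higher genes were led by Ly6c2 (log2 ratio 3.37, 4.71 and 4.23), Gzmb (2.67, 2.53 and 2.02) and Gzmk (1.73, 2.97 and 2.90). Ctla2a, a cathepsin inhibitor, Ugcg, the enzyme of glucosylceramide synthesis, and Tm6sf1 completed the 6 named genes. Of the 19 cytotoxic effector genes tested, 4 were higher, namely Ccl5, Gzma, Gzmb and Gzmk. Perforin was not, with log2 ratios of 1.81, 1.03 and -0.12 for Prf1. The sign for Prf1 thus differed among libraries, and its level in cycling CD8 T cells of the combination was close to that of CD4 T cells.

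Genes lower in cycling CD8 than in cycling CD4 T cells included helper and costimulatory genes. Of 8 costimulatory receptors and ligands tested, 4 were lower (Tnfrsf18, Tnfrsf4, Tnfsf11 and Tnfsf8), where 1.03% of all genes tested were. Tnfsf11 encodes RANKL and Tnfsf8 the CD30 ligand, and Tnfrsf4 encodes OX40, at 60.9, 57.1 and 72.8 CPM in cycling CD8 T cells with log2 ratios of -2.15, -2.11 and -2.26. Of 18 IL-2/STAT5 response genes, 5 were lower (Ahr, Cdkn1a, Cish, Tnfrsf18 and Tnfrsf4) and Gzmb was higher. Ifitm2 was lower in cycling CD8 T cells too, with log2 ratios of -1.54, -1.84 and -2.11, whereas Ifitm1 had 0.99, 0.24 and -0.34. The named genes of lowest ratio were Scin, Tnfsf11, Tnfsf8, Ramp3, Penk and Maf, of which Penk encodes proenkephalin, Ramp3 a receptor activity-modifying protein and Maf a transcription factor of helper T cells. Scin, an actin-severing protein, was at 0.4999, 2.43 and 5.25 CPM in cycling CD8 and 70.5, 105 and 77.9 CPM in cycling CD4 T cells. Maf was at 11.1, 11.3 and 22.03 CPM against 144, 112 and 131 CPM. All of these named genes, and Cish, lay below 50 CPM in cycling CD8 T cells of each library. They thus passed the filter through the CD4 gate alone, and so did Tnfsf11, Tnfsf8 and Cish in the list counts above.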

How the data were processed

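Single-cell RNA sequencing was performed on CD45+ tumor cells of 3 libraries, 1 per treatment. The authors deposited unnormalized UMI counts per gene and barcode, made with Cell Ranger 8.0.0 per the file headers. The labels name mm10, whereas the methods name a newer build with introns counted, so no gene coordinates are given for the counts. Barcodes were gated by the rule given in the report, and no mice are told apart within a library.

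Counts were summed over the cells of a gate and library and expressed as CPM. Ratios were taken for genes with at least 20 summed UMIs, and those reaching 50 CPM on either side were counted at a 2-fold limit. With 1 library per group no test was made. Shares have exact binomial 95% intervals, ratios of shares log-normal ones, ratios of CPM exact conditional ones, and list medians order-statistic ones. List medians are relative to the median of all genes (-0.09 and 0.04 on the log2 scale). Shares of cells with a UMI used cells thinned to 3000 UMIs (seed 1), with macrophages as background. Doublets were called with Scrublet in scanpy 1.11.5 at an expected rate of 10% and kept in the main analysis. Python 3.11.15, numpy 2.4.6, scipy 1.17.1, pandas 2.3.3 and matplotlib 3.10.9 were used, and the ratio code was tested on simulated data.

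Named genes were the 8 highest and 8 lowest ratios per comparison (6 each for CD4), leaving out mitochondrial, ribosomal, antigen receptor, immunoglobulin, hemoglobin and sex-linked genes, genes of the rule and unnamed models. For cycling over non-cycling cells the value nearest 0 of the 3 libraries was ranked, outside the phase lists. Other genes come from the 19 program lists and 9 cell type lists or were chosen after their values were seen. The members and lists were chosen with earlier results of these data known. Promoters are from RefSeq on GRCm38.p6, where 40 of 56 named genes had an entry. Alternatives concerned the gate, doublets, depth, CPM minimum and weighting. Leaving out members with 3 or more UMIs of B cell, macrophage or KP1 markers, thinning within libraries, and the gates of the within-library comparisons were added after seeing the data.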

Additional observations from a re-analysis of the deposited data

How the results depend on the processing

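The cycling share of IL-10/2-Trikine over mono-IL-10 stayed above 1 in each setting tried, at 2.48 with a threshold of 6 UMIs, 2.44 with 0 myeloid UMIs, 2.43 without members carrying markers of another type, and 2.58 and 2.37 at 2000 and 4000 UMIs. Combination over IL-10/2-Trikine was 0.443 without those members, 0.442 and 0.625 at 2000 and 4000 UMIs, and 0.396 over all kept barcodes. Without a CPM minimum, 329 genes were higher and 554 lower in the first comparison and 527 and 215 in the second. Lower genes of the first comparison numbered 29 with 0 myeloid UMIs, 32 without other-type members, 33 with each cell weighing the same and 12 after centring on the median of all genes. Without other-type members, 23 of its 34 genes were shared. With doublets removed, 17 genes were higher in the combination. The S phase median of the first comparison was 0.22 (threshold of 6), 0.38 (0 myeloid UMIs), 0.36 (members above 30000 UMIs left out), 0.47 (without other-type members) and 0.43 (cells weighing the same), and the G2/M median 0.10 (threshold of 6) and 0.30 (cells weighing the same). Without other-type members, nucleotide synthesis was at 0.38 and the IL-2/STAT5 response at -0.069. The G2/M median of the second was -0.23 without doublets, -0.21 with 0 myeloid UMIs and -0.21 with cells weighing the same. Genes lower in cycling than non-cycling cells numbered 67 without other-type cells and 55 at 3000 UMIs, and genes higher in CD8 than CD4 cells 26 with 0 myeloid UMIs. Ccl1 turned to -0.24 without other-type members, and Il1b to 1.38 without doublets, 0.42 with 0 myeloid UMIs and 0.15 without other-type members. Causes were not tested. Of the remaining values, 357 main and 200 single-gene values moved by less than their limit and 52 single-gene values moved without changing sign. No paired analysis was possible because each group is 1 library.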

Other observations

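T cell receptor β chain segments were read from the same counts, in the 283, 581 and 221 cycling CD8 T cells with UMIs of exactly 1 Trbv segment. In the mono-IL-10 library, Trbv13-1 was found in 25.8% (exact 95% interval 20.8 to 31.3) and Trbv29 in 17.3% (13.1 to 22.2) of these cells. In non-cycling CD8 T cells of that library, Trbv13-1 was found in 19.9%. In cycling cells of the IL-10/2-Trikine library, Trbv19 was found in 13.4% and Trbv3 in 13.1%, and in those of the combination library Trbv19 was found in 14.9% (10.5 to 20.3). A 3′ library captures these segments in a minority of cells, segments share sequence, and clones cannot be read from them.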
